A study of Homo sapiens with 6 samples.

Results

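Notch receptors, their ligands and the HES and HEY repressors were followed in LN229 cells, an established human glioblastoma line, with and without added LACTB. LACTB is a mitochondrial protein related to bacterial beta-lactamases and known as a tumour suppressor. The set holds 10 genes, found by their symbols among the 24489 rows of the deposited table: the receptors NOTCH1, NOTCH2 and NOTCH3, the ligands JAG1, JAG2, DLL1 and DLL3, and the targets HES1, HES4 and HEY1. RNA-seq covered 3 libraries of cells transduced with LACTB and 3 libraries of cells transduced with vector. All 6 libraries came from the same line, and the sources used here do not give the construct's promoter or any selection. Whether libraries of a group were grown as separate cultures is not stated, so each p-value reflects a spread between libraries that may be technical.

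Notch receptors are single-pass membrane proteins that are activated by ligands on neighbouring cells. Ligand binding lets ADAM10 and then gamma-secretase cut the receptor, and the freed intracellular domain moves to the nucleus, where it joins the DNA-binding protein RBPJ and a Mastermind coactivator to switch on HES and HEY genes. In neural tissue the HES and HEY repressors hold back proneural genes and keep progenitors undifferentiated, and Notch genes are widely expressed in glioma.

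The members went both ways with LACTB. The ligand gene JAG1 rose 3.21-fold as a ratio of group means, the receptor gene NOTCH2 rose 1.73-fold and the target gene HES1 rose 1.29-fold. NOTCH3 fell to 36.6 ± 7.66 normalized read counts in LACTB cells, against 111 ± 22.6 in vector cells, and HES4 fell to 278 ± 35.1 in LACTB cells, against 524 ± 73.3 in vector cells (SD, n = 3 each). NOTCH1 and HEY1 did not pass the threshold. JAG2, DLL1 and DLL3 lay below the low-value filter and were not tested.

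A normalized read count is the deposited value for a gene in a library. Genes with a mean of at least 37.7 normalized read counts were tested, which left 12942 genes and 7 of the 10 members. Among the members the filter fell between NOTCH3, with a mean of 74.0 over all 6 libraries, and JAG2, with a mean of 11.8. Differences are log2(value + 1) in LACTB minus vector, which understates the change of low genes, with adjusted p-values from limma over all genes tested and a threshold of 0.05. Of the 7 tested members 3 rose, where 27.4% of all tested genes rose, and 2 fell, where 24.5% of all tested genes fell. The groups did not overlap for 5 of the 7, where 59.7% of all tested genes did not overlap. In both directions together 5 of the 7 members were called, where 51.9% of all tested genes passed. With 7 genes the difference between these shares was not tested. The median log2 difference was 0.32 over the 7 members and 0.05 over all tested genes.

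Summed over all genes, a library held 34907394 to 41384595 normalized read counts, with the LACTB libraries below the vector libraries. The number of reads behind a column is unknown, so precision rests on the spread between libraries. The values had been adjusted before deposit by a method that is not stated, and each of the 3 vector libraries has 22538 genes above 0, so that adjustment may have altered this spread. LACTB itself had 4268, 4078 and 4203 normalized read counts in LACTB libraries, against 458, 515 and 393 in vector libraries. Of 10 glial and glioma markers 8 were tested, with 4 higher and 3 lower, where 27.4% of all tested genes rose and 24.5% fell. AQP4 and ALDH1L1 lay below the filter. Summed levels of 7 endothelial markers were 184 to 208 in LACTB libraries and 249 to 321 in vector libraries, with neither of the 2 tested markers past the threshold and CDH5, TEK, ERG and CLDN5 at 16.9 or less. KDR, another marker of that list and singled out after its values were seen, had 1.57, 1.55 and 11.5 in LACTB libraries, against 72.4, 79.8 and 57.6 in vector libraries, and lay below the filter. All 6 blood cell markers lay below the filter, and none of the 5 tested neuronal markers passed. Of 7 melanocyte and neural crest markers 4 were tested and all 4 fell, where 24.5% of all tested genes fell. Their log2 differences ran from -0.31 for SOX10 to -5.09 for DCT. Summed levels, mostly those of SOX10, were 41269.9 to 43336 in LACTB libraries and 48664 to 62480.3 in vector libraries. Below the filter, and singled out after their values were seen, TYRP1 averaged 22.8 in LACTB cells and 4.22 in vector cells, and TYR 0 and 27.8. The part of these marker differences in the Notch results was not tested.

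**Figure D1:**
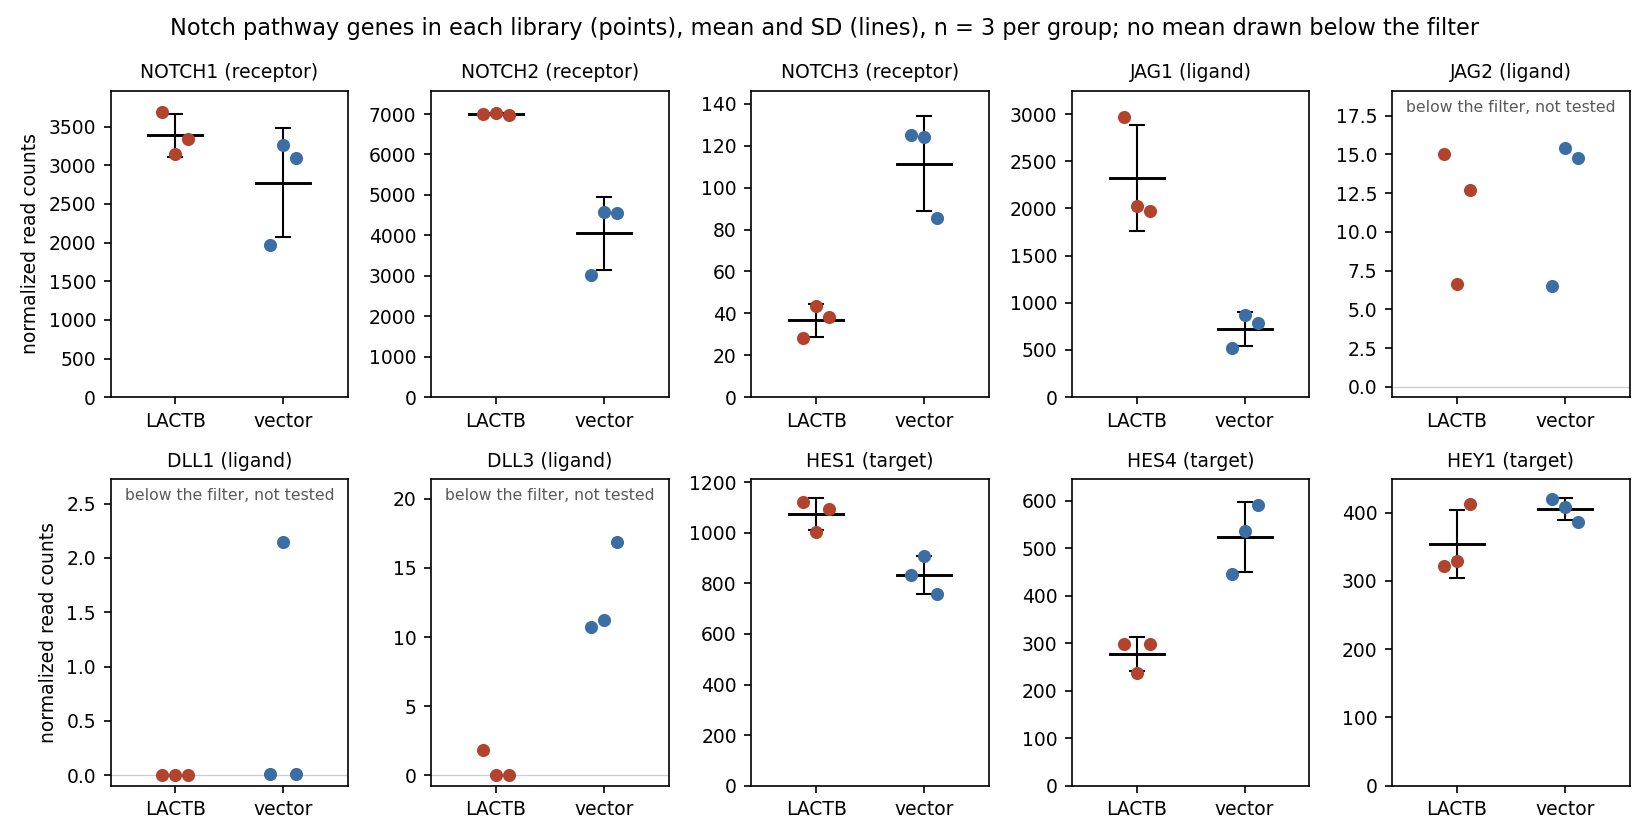
Normalized read counts (y axis, from 0, a scale of its own in each panel) of the 10 genes in 3 LACTB libraries (red, left) and 3 vector libraries (blue, right), with the mean as a long bar and the SD as an error bar for the 7 tested genes. The groups stand apart for NOTCH2, NOTCH3, JAG1, HES1 and HES4, and overlap for NOTCH1 and HEY1.

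Among the ligands, JAG1 alone passed the filter, and it rose. JAG1 encodes Jagged1, a membrane ligand of the Serrate type (chromosome 20, 10637684 to 10673999, minus strand, GRCh38). Its level was 2972, 2020.2 and 1972 normalized read counts in LACTB libraries, against 522, 866 and 785 in vector libraries. Every LACTB library was above every vector library, and LACTB library 1 stood above the other LACTB libraries. The log2 difference was 1.69 (SE 0.17, adjusted p = 1.5e-07). It ranged from 1.47 without vector library 1 to 1.88 with column totals made equal, and it passed the threshold in each alternative. A non-coding gene on the opposite strand shares 79 exonic bases with JAG1 and stood at 4.24 or less in every library.

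The other ligand genes were barely detected. JAG2, the second Jagged ligand (chromosome 14, 105140981 to 105168824, minus strand), stood at 15.0, 6.65 and 12.7 normalized read counts in LACTB libraries, against 6.53, 15.4 and 14.8 in vector libraries. The ranges of the groups overlapped. JAG2 shares 469 exonic bases with another annotated gene of the same strand, so its low level is uncertain.

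DLL3 is a divergent Delta-like protein that is held mostly inside the cell and does not activate receptors on neighbouring cells (chromosome 19, 39498895 to 39508481, plus strand). It stood at 1.81, 0 and 0.00861 normalized read counts in LACTB libraries, against 10.7, 11.2 and 16.9 in vector libraries. Every vector library was above every LACTB library, at levels far under the filter. When all 24489 rows were tested with no filter, where 29.2% of rows passed, DLL3 reached a log2 difference of -3.27 (adjusted p = 0.001), a size that depends on the added value of 1. DLL4, another Delta-like ligand, is listed at the same 1.81, 0 and 0.00861 in LACTB libraries, so values this low can be shared between genes. DLL1, a Delta-like ligand that activates receptors (chromosome 6, 170282206 to 170306565, minus strand), is listed at 0 in all 3 LACTB libraries and stood at 0.0111, 2.15 and 0.0107 in vector libraries.

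Of the receptors, NOTCH2 rose and NOTCH3 fell. NOTCH2 (chromosome 1, 119911553 to 120069626, minus strand) had 7010.2, 7015 and 6983 normalized read counts in LACTB libraries, against 3015, 4584 and 4553 in vector libraries. The LACTB libraries lay close together and all above the vector libraries, among which library 1 was the lowest. The log2 difference was 0.82 (SE 0.14, adjusted p = 3.9e-05). It was 0.44 once a trend with transcript length and GC content had been removed from every library (adjusted p = 0.0014). NOTCH2 has partial copies that are nearly identical to its start, so its value is uncertain where reads were split among them. Of these copies, looked up outside the rule for named genes, NOTCH2NLC reached at most 62.0 and NOTCH2NLA at most 15.7 in any library.

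NOTCH3, the receptor best known from vascular smooth muscle and pericytes (chromosome 19, 15159038 to 15200981, minus strand), had 28.3, 43.4 and 38.1 normalized read counts in LACTB libraries, against 125, 124 and 85.3 in vector libraries. All LACTB libraries were below all vector libraries. The log2 difference was -1.58 (SE 0.29, adjusted p = 1.1e-04). The LACTB mean of NOTCH3, 36.6, lay under the filter of 37.7, so the gene passed the filter through its vector level. The difference was smaller when 37.7 in place of 1 was added to each value and still passed the threshold (adjusted p = 5.5e-05). In these bulk libraries, fewer cells that express a gene and less RNA per cell cannot be told apart.

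NOTCH1 (chromosome 9, 136494433 to 136545786, minus strand) had 3693, 3142 and 3338 normalized read counts in LACTB libraries, against 1970.0, 3261 and 3100.4 in vector libraries. The groups overlapped, and vector library 1 was far below the other 5 libraries. The log2 difference was 0.32 (SE 0.15, adjusted p = 0.075). Leaving out vector library 1 gave 0.09 (adjusted p = 0.44), and leaving out vector library 2 gave 0.45 (adjusted p = 0.034). NOTCH1 was also called higher when column totals were made equal (0.51, adjusted p = 0.017), under quantile normalization (0.41, adjusted p = 0.023), with no filter (0.32, adjusted p = 0.041) and after the length and GC trend was taken out (0.25, adjusted p = 0.038). In the longest of 5 bins of tested genes by transcript length, which holds all 3 receptors and JAG1, the median deviation from the vector mean was -0.09 in vector library 1, 0.14 in vector library 2 and -0.03 in vector library 3. In the most GC-rich of 5 bins by GC content, which also holds NOTCH1, it was -0.12, -0.04 and 0.16 in vector libraries 1, 2 and 3. The part of these deviations in the NOTCH1 value was not tested.

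Levels of different genes can be compared only per length, here as normalized read counts per kilobase of the longest annotated transcript. In LACTB cells HES1 had the highest level per kilobase, at 680.1 ± 39.7, followed by NOTCH2 at 615 ± 1.53. JAG1 at 391 ± 94.9 and NOTCH1 at 364 ± 30.0 came next and differed by less than the spread of JAG1. HES4 at 267 ± 33.7, HEY1 at 154 ± 21.8 and NOTCH3 at 4.23 ± 0.884 followed (SD, n = 3). In vector cells HES1 at 527 ± 47.0 and HES4 at 504 ± 70.5 led and differed by less than their spread, as did NOTCH2 at 356 ± 78.7 and NOTCH1 at 298 ± 75.6. HEY1 at 177 ± 7.27, JAG1 at 122 ± 30.3 and NOTCH3 at 12.9 ± 2.60 followed (SD, n = 3). In per-kilobase level JAG1 thus stood above HES4 and HEY1 in LACTB cells and below both in vector cells, and NOTCH3 was the lowest of the tested members in both groups.

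The targets HES1, HES4 and HEY1 encode basic helix-loop-helix repressors that bind DNA and recruit Groucho corepressors of the TLE family. Stretches of the HES1 and HES4 promoters are shown because RBPJ, the DNA-binding partner of the cleaved receptor, is known to act on HES genes there, and because these genes differed in opposite directions. Each stretch is the 250 bases before the start of transcription, 5′ to 3′ on the strand of the gene, from RefSeq on GRCh38.p14. Capitals mark TGGGAA, the core of the RBPJ motif, searched on both strands. HES1 is chr3:194135898-194136147, plus strand, and HES4 is chr1:1000098-1000347, minus strand.
HES1: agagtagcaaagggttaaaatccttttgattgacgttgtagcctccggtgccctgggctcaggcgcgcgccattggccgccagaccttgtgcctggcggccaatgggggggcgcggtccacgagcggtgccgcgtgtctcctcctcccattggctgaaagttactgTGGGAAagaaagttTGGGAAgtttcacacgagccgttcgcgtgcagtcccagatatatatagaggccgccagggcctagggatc
HES4: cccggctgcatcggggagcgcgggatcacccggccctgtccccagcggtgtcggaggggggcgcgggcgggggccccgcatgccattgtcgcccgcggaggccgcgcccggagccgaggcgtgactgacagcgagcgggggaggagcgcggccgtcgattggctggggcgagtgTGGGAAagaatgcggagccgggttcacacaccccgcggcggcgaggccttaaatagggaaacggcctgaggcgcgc

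The HES1 stretch holds TGGGAA at 84 to 79 and again at 70 to 65 bases before the start, and the HES4 stretch holds it once, at 76 to 71. The longer GTGGGAA, which contains the shorter motif, occurs once in each. Of 35114 RefSeq promoters read over the same 250 bases, 20.8% hold TGGGAA on either strand, 2.90% hold it at least 2 times and 5.43% hold GTGGGAA. The N-box CACNAG, which HES repressors bind, occurs 3 times in the HES1 stretch and is not among the letters of the HES4 stretch. Of the promoters 32.0% hold it at least once and 6.32% at least 2 times. Promoters of 7 members were matched in the table, and TGGGAA was not among these letters for NOTCH1, NOTCH2, NOTCH3, JAG1 and JAG2. Of these genes only NOTCH3 holds CACNAG, at 211 to 206 bases before the start. These are matches of letters and do not show binding in LN229 cells.

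HES1 (chromosome 3, 194136145 to 194138732, plus strand) had 1122, 1002 and 1095 normalized read counts in LACTB libraries, against 832, 907 and 758 in vector libraries. All LACTB libraries were above all vector libraries, by a narrow gap. The log2 difference was 0.37 (SE 0.13, adjusted p = 0.022). The call was lost with median centring (0.24, adjusted p = 0.14), with quantile normalization (0.26, adjusted p = 0.08), and without LACTB library 1 (adjusted p = 0.098), LACTB library 3 (0.095) or vector library 3 (0.062). After removal of the length and GC trend the difference was 0.62 (adjusted p = 4.8e-04).

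HES4 (chromosome 1, 998962 to 1000172, minus strand) had 298, 237 and 298 normalized read counts in LACTB libraries, against 446, 536 and 591 in vector libraries. All LACTB libraries were below all vector libraries, with a log2 difference of -0.91 (SE 0.17, adjusted p = 1.4e-04). After removal of the length and GC trend the difference was -0.14 and the call was lost (adjusted p = 0.4), so the call depends on that step. In that setting 4 members rose, NOTCH1 among them, where 23.7% of 12710 genes rose, and NOTCH3 was the 1 member that fell, where 24.9% fell. The longest transcript of HES4 has 1040 bases and 73.9% GC, close to the 74.0% of the most GC-rich tested gene.

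HEY1 (chromosome 8, 79764010 to 79767863, minus strand) had 322, 329 and 412 normalized read counts in LACTB libraries, against 419.9, 409 and 387 in vector libraries. LACTB libraries 1 and 2 were below every vector library and LACTB library 3 lay within the vector range. The log2 difference was -0.20 (SE 0.17, adjusted p = 0.31), and over the other scalings it ran between -0.40 with quantile normalization (adjusted p = 0.043) and -0.01 with equal column totals (adjusted p = 0.96). After removal of the length and GC trend it was -0.12 (adjusted p = 0.45).

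**Figure D2:**
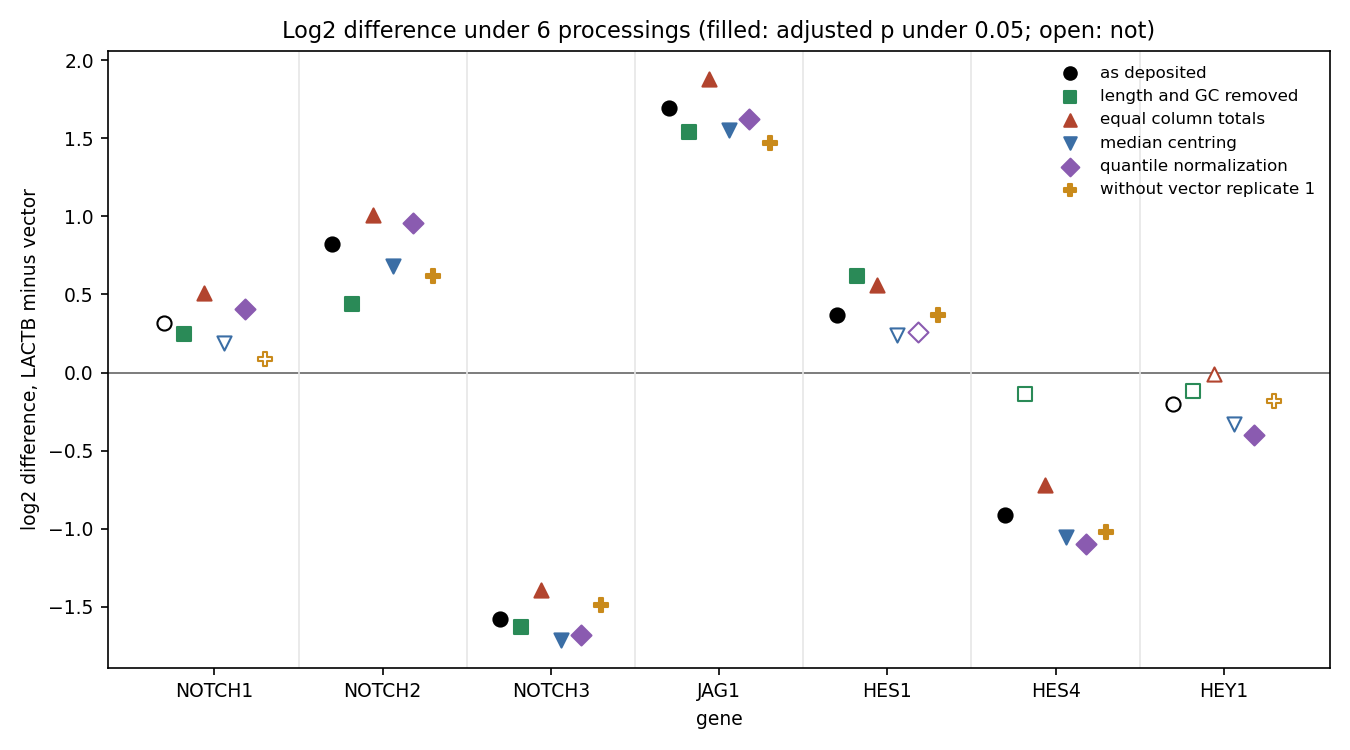
Log2 difference, LACTB minus vector (y axis), of the 7 tested members (x axis) as deposited and under 5 alternatives, with filled symbols where the adjusted p was under 0.05 and open symbols where it was not. JAG1 stays between 1.47 and 1.88 and NOTCH3 between -1.71 and -1.39, while HES4 comes to -0.14 once length and GC are removed.

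Transcript length and GC content did not enter the choice of members, and length sets the receptors apart from the targets. The longest transcripts of NOTCH1, NOTCH2 and NOTCH3 have 9306, 11389 and 8666 bases and that of JAG1 5940, against 1578 in HES1, 1040 in HES4 and 2296 in HEY1. Over all tested genes, whose values are not independent, Spearman's rho of the log2 difference was 0.41 with length and -0.45 with GC. The median difference was 0.46 in the longest of the 5 length bins, -0.27 in the shortest and -0.28 in the most GC-rich of the 5 GC bins. NOTCH3, long and with 63.1% GC, stood at -1.58, below both of its bins, and HES1, in the shortest bin, stood at 0.37. JAG1 and HES1, with 49.6% and 49.9% GC, lie in the middle bin for GC, where the median was 0.03. In windows of the 50 nearest tested genes on the chromosome, medians with length and GC removed lay between -0.09 around JAG1 and 0.20 around NOTCH3.

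**Figure D3:**
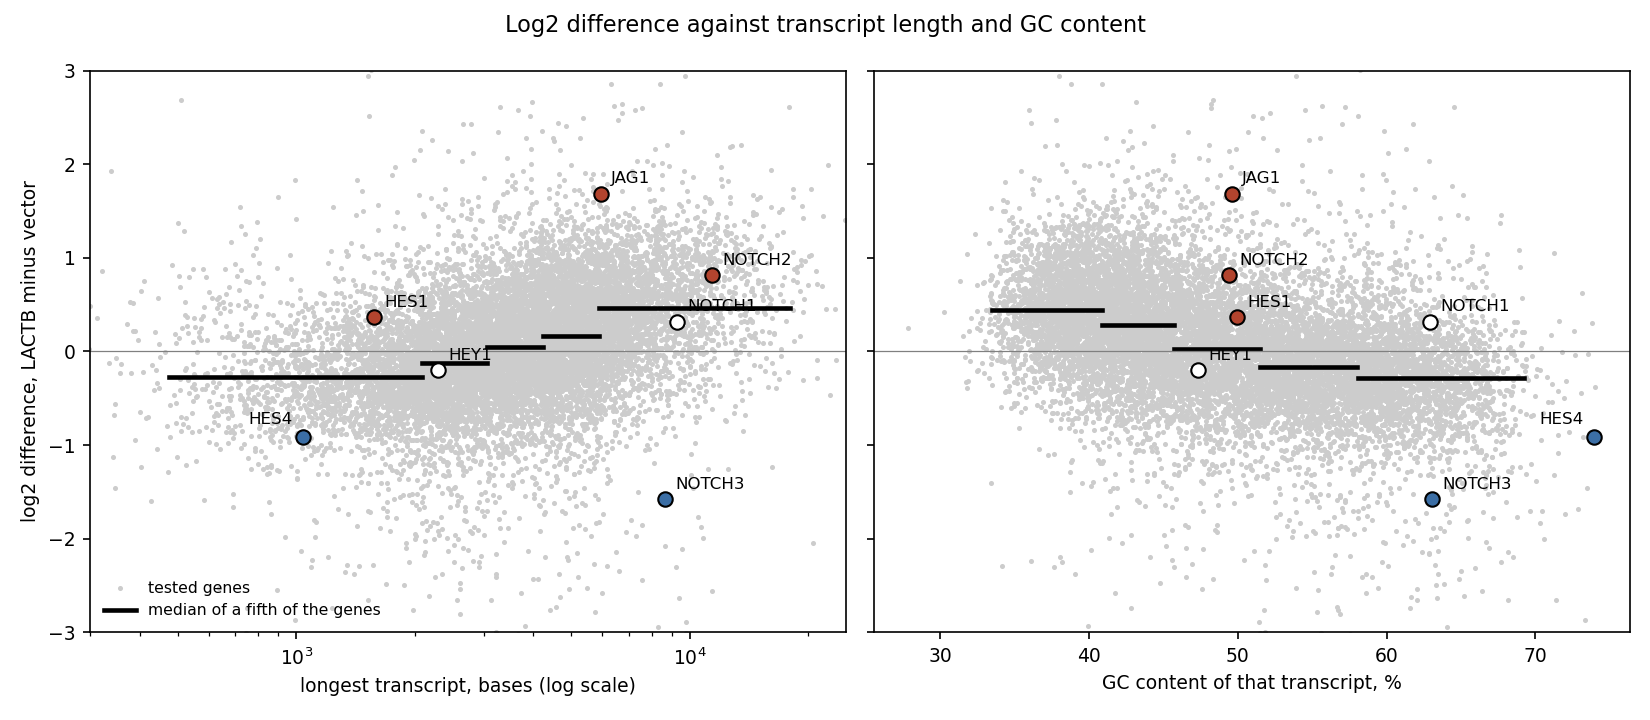
Log2 difference, LACTB minus vector (y axis, drawn from -3 to 3), against the length of the longest transcript (left, log scale) and its GC content in percent (right), with tested genes in grey, medians of 5 bins of the genes as black bars and the 7 tested members as circles (red higher, blue lower, white not past the threshold). JAG1, HES1 and NOTCH2 lie above the bars of their bins in both panels, and NOTCH3, HES4 and HEY1 lie below them. NOTCH1 lies below its bar for length and above its bar for GC.

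The rest of the pathway was read from 10 lists of 83 genes, grouped by role, of which 74 were in the table and 62 were tested. Of these 62 genes 21 rose and 13 fell, with a median log2 difference of 0.13. In percent this is close to the 51.9% called among all tested genes. The split depended on the scaling, with 14 higher and 16 lower after median centring and 30 higher and 6 lower with equal column totals, and the median difference of all tested genes moved from 0.05 as deposited to -0.09 and 0.24 in these settings.

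Components of the nuclear activation complex were higher or not past the threshold. Of 9 tested genes 5 rose and none fell, where 27.4% of all tested genes rose and 24.5% fell. The median of the 9 genes was 0.45. After removal of the length and GC trend 5 rose and none fell, with a median of 0.29, but not the same genes. CREBBP, a histone acetyltransferase, lost its call (0.23, adjusted p = 0.13) and KAT2A, another, gained one (0.25, adjusted p = 0.023), both singled out after their values were seen. MAML2, a Mastermind coactivator, had 353, 364 and 293 normalized read counts in LACTB libraries, against 119.6, 197 and 131 in vector libraries (log2 difference 1.20, SE 0.21, adjusted p = 6.7e-05, and 0.77 with the trend removed). KAT2B, a histone acetyltransferase, averaged 2518 ± 442 in LACTB cells and 1528 ± 249 in vector cells (SD, n = 3 each; log2 difference 0.72, adjusted p = 2.1e-04, and 0.43 with the trend removed). RBPJ itself, singled out after its values were seen, had 1280.2, 1601 and 1375 in LACTB libraries, against 1419, 1084 and 872 in vector libraries, and the groups overlapped (log2 difference 0.36, adjusted p = 0.053). It passed under 6 alternatives, among them equal column totals (0.55, adjusted p = 0.011), the replicate block (adjusted p = 0.022) and leaving out vector library 1 (0.54, adjusted p = 0.0017), and it turned to -0.16 with the trend removed (adjusted p = 0.25).

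Of 8 listed HES and HEY genes outside the members 2 were tested and both fell, where 24.5% of all tested genes fell. HES6, a family member known to counteract HES1, had 662, 642 and 692 normalized read counts in LACTB libraries, against 1629, 1463 and 1819 in vector libraries (log2 difference -1.29, SE 0.13, adjusted p = 5.3e-08). HEY2, the closest relative of HEY1, had 76.6, 114 and 135 in LACTB libraries, against 330.5, 328 and 383 in vector libraries (log2 difference -1.70, SE 0.22, adjusted p = 1.5e-06). All LACTB libraries were below all vector libraries for both genes, and both passed once the length and GC trend was removed (HES6 -0.69, adjusted p = 4.7e-05, and HEY2 -1.65, adjusted p = 4.0e-05). HES2 and HES7 lay below the filter, and HES3, HES5, HEYL and HELT had no row under these symbols. Among the 5 tested genes of the family, members included, HES1 was the one that rose, a call that 2 of the 3 other scalings ended.

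Genes that repress Notch output went both ways. Of 15 corepressor genes 6 rose and 4 fell, where 27.4% of all tested genes rose and 24.5% fell. This split turned with the scaling, to 3 higher and 6 lower with median centring and 7 higher and 1 lower with equal column totals. TLE2, a Groucho corepressor, had 205, 206 and 157 normalized read counts in LACTB libraries, against 449, 438 and 478 in vector libraries (log2 difference -1.27, adjusted p = 4.8e-06), and NCOR1, a nuclear receptor corepressor, averaged 1691 ± 212 in LACTB cells and 892 ± 153 in vector cells (SD, n = 3 each; log2 difference 0.93, adjusted p = 1.4e-05, and 0.39 with the length and GC trend removed). Of 8 tested genes of receptor turnover and inhibition 4 rose and 1 fell, where 27.4% of all tested genes rose and 24.5% fell. In this list NRARP had no row under its symbol and DTX4 lay below the filter. NUMB, ITCH, FBXW7 and AAK1 rose, and each lost its call once the length and GC trend was removed. DTX2 (0.62) and DTX3 (0.26) gained a call there and were the 2 higher genes. Of these genes all but AAK1 were singled out after their values were seen. The one that fell was DTX1, a Deltex ubiquitin ligase that binds the receptor's intracellular domain, with 98.4, 152 and 132 in LACTB libraries, against 435, 446 and 524 in vector libraries (log2 difference -1.88, SE 0.20, adjusted p = 9.8e-08). AAK1, a kinase of endocytosis that binds NUMB, rose by 0.98 on the log2 scale (adjusted p = 4.3e-05), and 0.31 once the length and GC trend was removed (adjusted p = 0.094), which ended the call.

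Modifiers of the receptor and of the ligands changed in part. Of 8 glycosylation genes 2 rose and 1 fell, where 27.4% of all tested genes rose and 24.5% fell. Equal column totals gave 4 higher and 0 lower. MFNG, the Manic fringe enzyme that extends O-fucose on Notch, had 182, 107 and 118 normalized read counts in LACTB libraries, against 20.4, 39.5 and 19.3 in vector libraries, with no overlap (log2 difference 2.36, SE 0.32, adjusted p = 3.9e-06). GXYLT1, which adds xylose to the O-glucose of Notch, rose by 0.59 (adjusted p = 0.0059) as deposited, against a difference of -0.01 with the trend removed (adjusted p = 0.95). Of 6 tested genes of ligand endocytosis 2 rose and 2 fell, against the same 27.4% and 24.5% of all tested genes. Equal column totals gave 2 higher and 0 lower and median centring 1 higher and 2 lower. MIB1, the ubiquitin ligase that primes ligands for endocytosis, rose by 0.91 (adjusted p = 1.4e-04) and its relative MIB2 fell by 0.44 (adjusted p = 0.0062), and neither passed once the trend was removed (0.22, adjusted p = 0.14 for MIB1 and -0.09, adjusted p = 0.48 for MIB2). MIB2 also lost its call with equal column totals (adjusted p = 0.12) and without LACTB library 3 (0.074).

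Of 9 genes of receptor cleavage 1 rose and 2 fell, where 27.4% of all tested genes rose and 24.5% fell. Median centring gave 0 higher and 3 lower and equal column totals 4 higher and 1 lower. PSEN2, a catalytic subunit of gamma-secretase, had 1392, 1313 and 1171 normalized read counts in LACTB libraries, against 2049, 2366 and 2424 in vector libraries (log2 difference -0.82, SE 0.12, adjusted p = 9.6e-06). ADAM10, the protease of the first ligand-dependent cut, rose by 0.41 (adjusted p = 0.011) as deposited, and removal of the length and GC trend turned it to -0.33 (adjusted p = 0.016), so its direction depends on that step. Its call was also lost with median centring (adjusted p = 0.075) and without LACTB library 2 (0.12) or vector library 3 (0.06).

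Of the non-canonical ligand genes 1 of 4 tested rose and 1 fell, where 27.4% of all tested genes rose and 24.5% fell. DNER, a neuronal membrane protein with EGF repeats reported to bind Notch, had 1608, 1682 and 1675 normalized read counts in LACTB libraries, against 312, 375 and 290.4 in vector libraries (log2 difference 2.35, SE 0.14, adjusted p = 1.9e-11). EGFL7, a secreted EGF-like protein known from endothelium, had 405, 438 and 391 in LACTB libraries, against 1846, 1723 and 1875 in vector libraries (log2 difference -2.14, SE 0.13, adjusted p = 2.4e-11). Of the remaining receptor and ligand, NOTCH4 differed by -0.28 (adjusted p = 0.31) and DLL4 lay below the filter.

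Of 7 listed proneural genes 4 had a row and none of these passed the filter, while NEUROG1, NEUROD1 and NEUROD4 had no row under these symbols. NEUROG2, singled out after its values were seen, stood at 14.8, 12.0 and 12.7 normalized read counts in LACTB libraries, against 78.6, 63.3 and 38.6 in vector libraries. Its mean of 36.7 lay just under the filter of 37.7. With no filter, where 29.2% of rows passed, limma gave NEUROG2 a log2 difference of -2.05 (adjusted p = 2.0e-05).

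**Figure D4:**
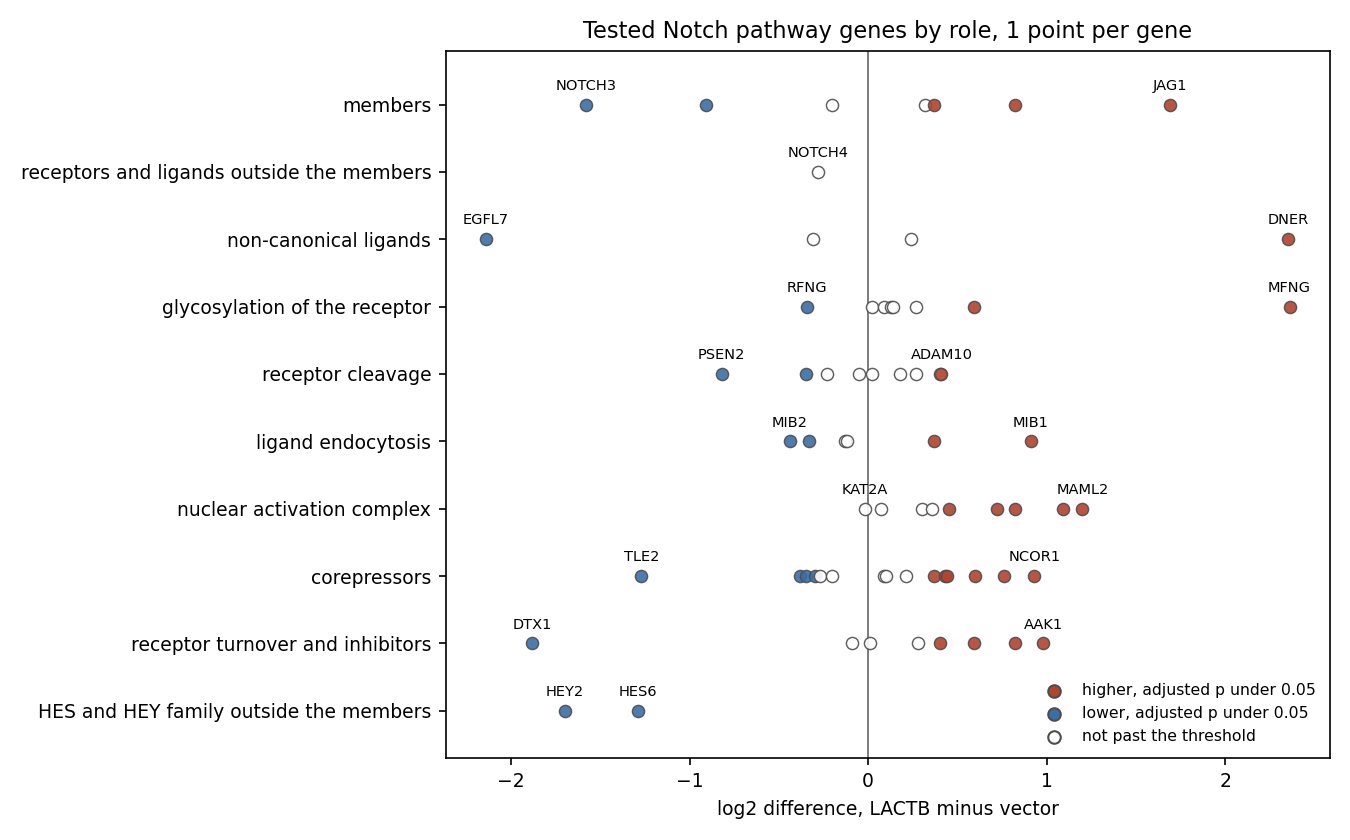
Log2 difference, LACTB minus vector (x axis), of the 7 tested members and of the 62 tested pathway genes in 9 role lists (rows), 1 point per gene, red where higher and blue where lower at an adjusted p under 0.05 and white otherwise, with the lowest and highest gene of each row named. No gene of the nuclear activation complex is blue, both tested HES and HEY genes outside the members are blue, and the non-canonical ligands run from EGFL7 at -2.14 to DNER at 2.35.

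Genes with profiles most like those of HES1 and JAG1 were found by the Euclidean distance between log2 values over the 6 libraries, each minus the vector mean, and are given as a description with no test. Nearest to HES1 were THADA (distance 0.07), MSRB3 (0.09) and LSG1 (0.09). These distances use values that still carry the length and GC trend. With the trend removed the log2 difference was 0.62 for HES1, -0.19 for THADA, 0.17 for MSRB3 and 0.34 for LSG1. LSG1, a GTPase of ribosome assembly, lies on the same chromosome as HES1 (chromosome 3, 194640788 to 194672477) and had 1919, 1841 and 1916 normalized read counts in LACTB libraries, against 1446, 1561 and 1363 in vector libraries. Nearest to JAG1 were the forkhead gene FOXC2 (distance 0.36), the secreted protein gene CRISPLD2 (0.37) and the growth factor gene BMP2 (0.39). BMP2 had 248, 175 and 184 in LACTB libraries, against 45.0, 86.1 and 54.3 in vector libraries. LACTB library 1 was the highest of all libraries for JAG1, FOXC2, CRISPLD2 and BMP2. The choice by distance to JAG1 over these same libraries favours such a shared peak, so it is no separate result.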

How the data were processed

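RNA-seq values of 3 LACTB and 3 vector libraries of LN229 cells were used as deposited. The deposited signal is a normalized read count per gene and library. HISAT2 and hg38 were used, per the submitters' processing notes, and the sources used here give no counter, annotation, strand setting or normalization method. Entries under 1e-10 were taken as 0. Low values lay only in part on a single step worth 1 read, so no count model was used. At the best step 34.0% to 57.3% were whole at a tolerance of 0.05, where 10% is the chance level of a single step.

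Of 24489 rows, 12942 had a mean of at least 1 CPM of the mean column total (37.7). They were fitted as log2(value + 1) in R 4.3.3 by limma 3.58.1 with group as the only term (trended prior, robust, two-sided, Benjamini-Hochberg), after a check on simulated data. Where a symbol stood on several rows, as 9 did, the row with the higher mean kept it and the other stayed in the fit under a separate name. Positions, lengths and GC are from GENCODE release 29 (GRCh38), with length and GC for 98.2% of tested genes.

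Members, lists and alternatives were chosen with earlier results of these data known. Named genes are all members and, per list, the 2 tested genes with the smallest adjusted p or all of 3 or fewer, and the 3 genes nearest to HES1 and to JAG1 in profile. Alternatives were other scalings, filters, pseudocounts and limma settings, a replicate block, removal of a spline on length and GC, and leaving out each library. Figures used matplotlib 3.10.9.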

Additional observations from a re-analysis of the deposited data

How the results depend on the processing

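The number of members called higher was 3 as deposited and 2 to 4 over all alternatives, and it was 2 to 4 when 1 library was left out. The number called lower was 2 and ranged from 1 to 3. It was 3 with quantile normalization, where HEY1 was added, and 3 with no filter, where DLL3 was added, and it was 1 with a filter at 5 CPM, under which NOTCH3 was no longer tested, and 1 with length and GC removed, where HES4 lost its call. Leaving out 1 library gave 2 lower members each time, 23 to 38 called pathway genes against 34, and 5344 to 7340 called genes against 6720. Of 111 values of the 7 tested members under alternatives, 98 kept their direction and side of the threshold, 6 lost and 7 gained a call, and none changed direction with a call. For 24 other named genes 357 of 381 values kept both and 21 lost a call with the direction kept. Among these genes a called difference changed sign in 3 cases, all with length and GC removed. GXYLT1 went to -0.01 (adjusted p = 0.95) and THADA to -0.19 (adjusted p = 0.21), so both lost their calls. ADAM10 alone passed in the turned direction, at -0.33 (adjusted p = 0.016). For all genes, higher calls made up 52.7% of calls as deposited, 39.3% with median centring and 72.2% with equal column totals.

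Same-numbered libraries of the groups had correlations of deviations of 0.02, 0.18 and 0.004 across tested genes, so the numbers were not taken to pair libraries. With the replicate number as a block, 6878 genes were called, 4 members were higher, NOTCH1 among them (0.32, adjusted p = 0.026), and 2 were lower. Depth in reads is unknown, so no counting error can be given for the low levels of JAG2, DLL1 and DLL3.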
